A study of Homo sapiens with 6 samples.

Results

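Vitamin D signalling was followed in the HCA-7 human colorectal cancer cell line through 5 genes: the vitamin D receptor gene VDR and the responsive genes CYP24A1, CYP3A4, CYP3A5 and TRPV6. Every probe set annotated to 1 of these genes alone was taken, which gave 16 of the 54675 probe sets on the array, for 5 of 19775 named genes. HCA-7 cells labelled sc1, which form spiky colonies, and cc3, which form cystic colonies, were each grown in type 1 collagen gels for 5, 10 or 15 days. Total RNA from the layer of the gel that held the cells was hybridised to Affymetrix U133 Plus 2.0 arrays, with 1 array per line and day, so that 3 spiky arrays stood against 3 cystic arrays. The labels name no vitamin D treatment and no other agent. Each colony shape was represented by 1 line, so shape and line cannot be told apart. The labels do not say whether the days came from independent cultures. The p-values below therefore reflect nothing beyond the scatter of these 6 arrays, part of which may be technical, and the number of arrays limits the precision.

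The active hormone calcitriol binds the vitamin D receptor, which pairs with a retinoid X receptor on DNA and switches on genes such as CYP24A1, the mitochondrial enzyme that inactivates the hormone. CYP24A1 therefore works as the negative feedback of the pathway, and its transcript is widely used as a readout of receptor activity. In the intestine the receptor is known for driving calcium uptake through the calcium channel TRPV6 and for inducing CYP3A4, a drug and bile acid oxidising enzyme whose close relative CYP3A5 is its neighbour on chromosome 7.

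The promoters of the 2 CYP3A genes are shown because they hold the element through which the receptor is known to act on CYP3A4. RefSeq promoter sequences (GRCh38.p14, 250 bases before to 50 after the gene start) were matched for 3 of the 5 genes, CYP3A4, CYP3A5 and TRPV6. Capitals mark the motif TGAACTNNNNNNAGGTCA, searched on both strands, which consists of a pair of receptor hexamers that point away from each other with 6 bases between them. The CYP3A4 promoter lies at chr7:99784135-99784434 and the CYP3A5 promoter at chr7:99679947-99680246, both on the minus strand.
CYP3A4: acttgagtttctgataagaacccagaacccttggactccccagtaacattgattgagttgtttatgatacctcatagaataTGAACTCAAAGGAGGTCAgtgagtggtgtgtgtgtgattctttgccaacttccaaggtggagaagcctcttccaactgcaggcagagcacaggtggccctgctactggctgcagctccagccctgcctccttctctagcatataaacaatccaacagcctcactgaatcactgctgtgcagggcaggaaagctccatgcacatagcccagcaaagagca
CYP3A5: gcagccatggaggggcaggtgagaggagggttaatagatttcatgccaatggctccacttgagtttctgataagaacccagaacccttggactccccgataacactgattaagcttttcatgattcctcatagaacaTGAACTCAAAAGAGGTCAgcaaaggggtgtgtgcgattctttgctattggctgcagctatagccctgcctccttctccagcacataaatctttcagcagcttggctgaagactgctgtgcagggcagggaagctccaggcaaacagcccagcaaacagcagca
Counted from the gene start, the motif lies at -169 to -152 in CYP3A4 and at -113 to -96 in CYP3A5. Over its 18 bases the 2 genes differ by G11A (the CYP3A4 base first, positions counted from 1 at the 5′ end of the motif), and over 241 aligned promoter bases 85.9% were identical. The motif was present in 3 of 35116 promoters (0.00854%), the other being that of ITGB1BP2. Single hexamers were common: AGGTCA was present in 13.8% of all the promoters searched, AGTTCA was present in 10.4% of the same promoters, GGTTCA was found on either strand in 8.62%, and the remaining hexamer, GGGTCA, occurred in 14.1%. The longer motif contains the first 2 of these, so their matches in the CYP3A promoters overlap with it. The TRPV6 promoter held neither the motif nor any of these 4 hexamers in this window. A pair of these 4 hexamers in the same direction, 3 bases apart, was present in 0.074% of the promoters and in none of the 3 examined here.

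Levels are the authors' RMA values on the log2 scale, and a mean under log2 5 over the 6 arrays is given as close to background. Of the 16 probe sets 11 lay above that mean and 5 below, the nearest to it being a CYP3A5 probe set at 5.37 and a CYP3A4 probe set at 4.88. All 5 genes had at least 1 probe set above it, and each gene is represented below by its probe set with the highest mean unless stated otherwise. CYP24A1 reached the required mean only through the spiky arrays. The genes were chosen with earlier results of these arrays known, CYP24A1 for its difference between the lines, so the comparison of spiky with cystic is a description for these 5 genes and no test of it is given.

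The arrays had the profile of an epithelial line. Array medians lay between 5.18 and 5.34. Of 10 epithelial markers 6 had a mean of at least log2 5, namely EPCAM, KRT8, KRT18, KRT19, CDH1 and VIL1, the villin gene of the intestinal brush border. VIL1 was at -0.68 between spiky and cystic (limma adjusted p = 0.0411). The other intestinal markers on the list, KRT20, CDX1, CDX2 and LGALS4, were close to background. VIM and the leukocyte marker PTPRC were close to background too. Of 10 fibroblast markers 2 reached a mean of log2 5. The summed level of all 10 (linear RMA units), most of them close to background, was 258 to 383 on the spiky and 273 to 471 on the cystic arrays. Of 9 leukocyte markers 3 reached that mean. The summed level of all 9 was 163 to 215 on the spiky and 209 to 276 on the cystic arrays.

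The receptor transcript was lower in the spiky line at every day. The brightest VDR probe set had log2 levels of 10.20, 9.69 and 10.02 in the spiky line at day 5, 10 and 15, and of 10.44, 10.40 and 10.62 in the cystic line. The 3 spiky arrays lay below the 3 cystic arrays without overlap. The mean was 9.97 ± 0.26 in the spiky and 10.49 ± 0.11 in the cystic line (SD over days, n = 3), which is a difference of -0.51 (SE 0.10), or 1.43-fold lower in spiky colonies. Each SE here and below comes from the limma fit with its variance prior, not from the SD over days. For the chosen genes it is no test of a difference between the lines. In such bulk RNA, fewer cells with the transcript and less transcript per cell cannot be told apart. The daily differences were -0.24, -0.71 and -0.59.

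All 4 VDR probe sets were lower in the spiky line at each of the 3 days. The next brightest had 6.68, 6.02 and 5.96 in the spiky line and 6.99, 6.68 and 6.49 in the cystic line at day 5, 10 and 15, a mean difference of -0.50. The third had 6.44, 5.69 and 5.55 in the spiky line and 6.88, 6.65 and 6.20 in the cystic line, a mean difference of -0.68. In both of these the spiky day 5 array overlapped the cystic range. The dimmest had 5.99, 5.90 and 5.98 in the spiky line and 6.14, 6.03 and 6.25 in the cystic line, without overlap, and a mean difference of -0.18. Over the 11 probe sets of the 5 genes above background, 3 did not overlap between the lines, 2 of VDR and that of CYP24A1. The share over all 23948 named probe sets above the same mean was 15.2% (9.37% with the spiky line lower and 5.79% with it higher). CYP24A1 was chosen for its difference between the lines and passed the mean only through the spiky arrays. The 2 of VDR measure the same gene, so the count is a description and no excess is read from it.

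VDR probe sets disagreed over culture time. The brightest differed by -0.00 (SE 0.13) between day 15 and day 5, averaged over both lines, with -0.18 in the spiky and 0.17 in the cystic line (limma adjusted p = 0.990). The dimmest differed by 0.05 (adjusted p = 0.896 when each probe set was tested in limma). The other two were at -0.61 (adjusted p = 0.0531) and -0.79 (SE 0.23, adjusted p = 0.0251) in the same fit, so only the last of them passed as lower at day 15.

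CYP24A1 was high in the spiky line at day 5 and 10 and lower there at day 15, whereas in the cystic line its probe set stayed under log2 5 on all 3 arrays. Its 1 probe set had 7.71, 7.37 and 5.60 in the spiky line and 4.77, 4.29 and 4.25 in the cystic line at day 5, 10 and 15. The lowest spiky array thus lay above the highest cystic array. The mean was 6.89 ± 1.13 in the spiky and 4.44 ± 0.29 in the cystic line (SD over days, n = 3). Since the cystic levels lay under log2 5, differences from them are given only as bounds. With cystic levels set to log2 5, CYP24A1 was at least 3.71-fold higher in spiky than in cystic colonies over the 3 days, at least 6.53-fold higher in spiky than in cystic colonies at day 5, at least 5.19-fold at day 10 and at least 1.51-fold at day 15. The 6 arrays in descending order were spiky day 5, 10 and 15 and then cystic day 5, 10 and 15. Each is a single array, so neighbours in that order have no spread of their own.

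**Figure D1:**
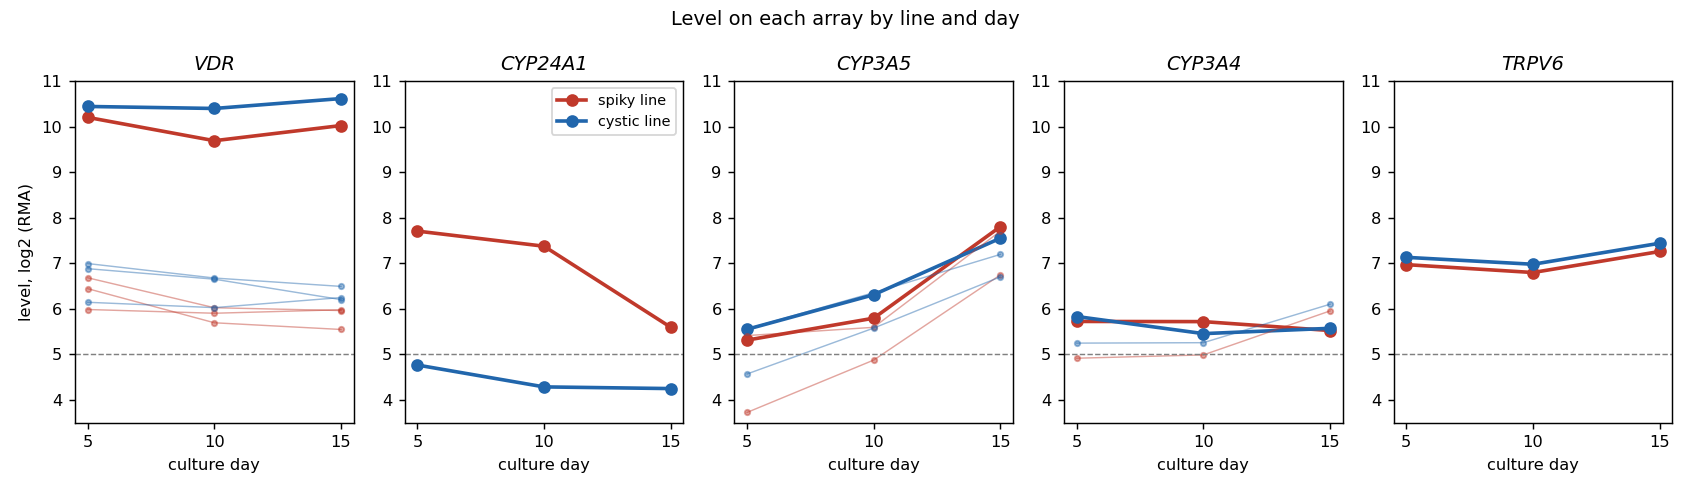
Log2 RMA level against culture day for the 5 genes, spiky line in red and cystic line in blue, 1 array per point. Thick lines are the probe set with the highest mean, thin lines the gene's other probe sets above a mean of log2 5, and the dashed line marks log2 5. CYP24A1 is at 5.60 in the spiky line at day 15 and stays under 5 in the cystic line, and CYP3A5 climbs in both lines.

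Between day 15 and day 5 the change of CYP24A1 in the spiky line was -2.11, which is 4.32-fold lower at day 15. In the cystic line it was -0.52, between levels that were both close to background. The fit averages these 2 changes, so its value of -1.31 (SE 0.38, limma adjusted p = 0.0290) partly rests on levels under log2 5 and is no estimate of the size of the change. The call also rested on few arrays: without the spiky day 15 array the change was -0.48 (limma adjusted p = 0.259), without the spiky day 5 array -0.95 (adjusted p = 0.285) and without the cystic day 5 array -1.67 (adjusted p = 0.0618). Over all alternatives the adjusted p lay between 8.73e-05 and 0.285. The slope over time differed between the lines by -1.59 per 10 days, spiky minus cystic (SE 0.64), with limma adjusted p = 0.999 and an unadjusted p of 0.0406. The cystic slope ran between levels under log2 5, so this comparison cannot tell whether the time courses differ. Over all genes this comparison called 0 of 12317 (0%), and 309 had an unadjusted p under 0.05 (2.51%).

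CYP3A5, which oxidises steroids and drugs, rose over the culture in both lines. It had 5.31, 5.80 and 7.80 in the spiky line and 5.55, 6.31 and 7.55 in the cystic line at day 5, 10 and 15. Levels ran in the order of days in each line, and both day 15 arrays lay above all others. The fitted difference between day 15 and day 5 was 2.24 (SE 0.24, limma adjusted p = 0.000627), a 4.74-fold rise, with 5.61-fold in the spiky line. It ranked 33 from the top among 12317 tested genes. At day 10 the difference from day 5 was 0.62 (SE 0.24, adjusted p = 0.327) and did not pass, in a comparison that called 0.0162% of all genes. Of all tested genes 6.82% had levels in the order of days in both lines.

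The other CYP3A5 probe sets moved the same way. Between day 15 and day 5 the probe set next in brightness was at 1.96 (SE 0.29, adjusted p = 0.00105) and the third at 2.57 (SE 0.27, adjusted p = 0.000271), each tested as its own probe set in limma. The third had 3.73, 4.88 and 6.75 in the spiky line and 4.57, 5.58 and 6.70 in the cystic line at day 5, 10 and 15. Both of its day 5 levels lay under log2 5, and it reached that mean only through its later arrays. Its value of 2.57 is therefore no estimate of the size of the change. The fourth, close to background, had 3.09, 3.77 and 5.12 in the spiky line and 3.07, 4.15 and 4.70 in the cystic line. Read from its brightest probe set or the mean of its probe sets, the rise of CYP3A5 kept its call under all 12 alternatives, at 1.93 to 2.56. Between the lines CYP3A5 overlapped, with a mean of 6.30 ± 1.32 in the spiky and 6.47 ± 1.01 in the cystic line (SD over days, n = 3) and a difference of -0.17 (SE 0.19).

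The probe sets of CYP3A4, the main drug-metabolising enzyme of liver and gut, did not give 1 picture. The brightest had 5.72, 5.72 and 5.52 in the spiky line and 5.83, 5.46 and 5.57 in the cystic line at day 5, 10 and 15. It differed by -0.23 between day 15 and day 5 (SE 0.22, limma adjusted p = 0.472) and by 0.04 between spiky and cystic (SE 0.18). The only other one above background had 4.92, 4.99 and 5.95 in the spiky line and 5.25, 5.26 and 6.10 in the cystic line. This probe set rose by 0.95 between day 15 and day 5 (SE 0.23, adjusted p = 0.0123 with each probe set tested in limma), with 1.04 in the spiky and 0.85 in the cystic line. The remaining 3 carry the _x_at ending, which marks probe sets with probes that may cross-hybridise to other sequences, and were close to background. Among them 1 had 4.38, 4.56 and 5.89 in the spiky line and 4.64, 4.82 and 5.00 in the cystic line.

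TRPV6, the apical calcium channel of intestinal calcium uptake, differed little in either direction. It had 6.97, 6.80 and 7.26 in the spiky line and 7.13, 6.98 and 7.44 in the cystic line at day 5, 10 and 15. The spiky array was lower at each day, by 0.16, 0.18 and 0.18 log2 units, although the ranges of the 2 lines overlapped. The mean was 7.01 ± 0.23 in the spiky and 7.18 ± 0.24 in the cystic line (SD over days, n = 3), a difference of -0.17 (SE 0.15). Between day 15 and day 5 the change was 0.30 (SE 0.19, limma adjusted p = 0.264 with each probe set tested). The other TRPV6 probe set was close to background.

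**Figure D2:**
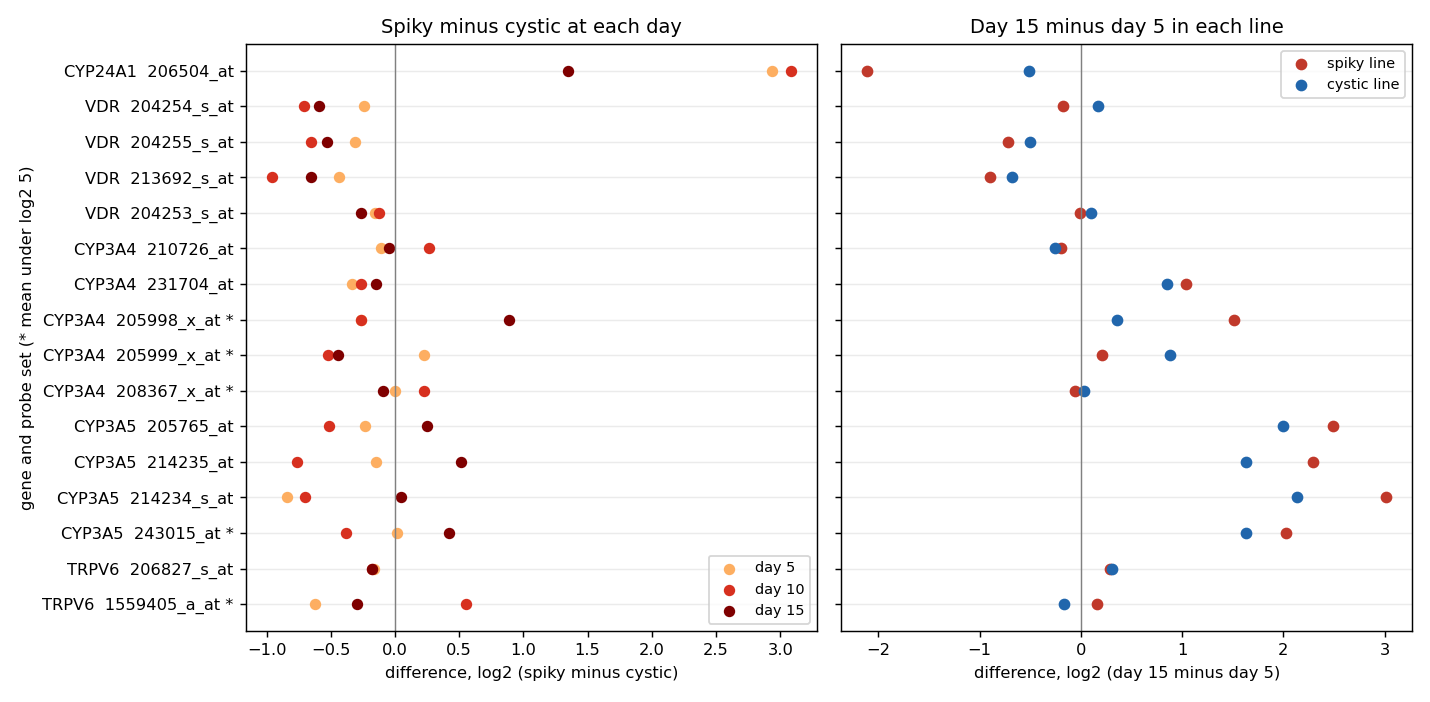
Log2 differences for each of the 16 probe sets. The left panel shows spiky minus cystic at day 5, 10 and 15, and the right panel day 15 minus day 5 in the spiky and the cystic line; an asterisk marks a mean under log2 5. All 4 VDR probe sets lie below 0 in the left panel at every day, and all 4 CYP3A5 probe sets lie at 1.63 or above in the right panel in both lines.

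Of the 4 genes above log2 5 in both lines, CYP3A5 passed between day 15 and day 5 as higher, and VDR, CYP3A4 and TRPV6 did not pass. CYP24A1 passed as lower with the limit given above, which makes 2 of 5 genes beside 32.3% of all tested genes (10.4% higher and 21.9% lower). With each probe set tested, 6 of 11 passed, 4 higher and 2 lower (CYP24A1 and 1 of VDR), beside 29.7% of all probe sets (11% higher and 18.7% lower). The 4 higher include the third CYP3A5 probe set, with the limit given above. Other measures moved with culture time too. The log2 difference between 3′ and 5′ control probe sets of ACTB, a sign of RNA integrity, was 2.73, 2.74 and 3.10 on the spiky and 2.83, 3.18 and 3.28 on the cystic arrays at day 5, 10 and 15. That of GAPDH was 0.60, 0.63 and 0.49 on the spiky and 0.65, 0.79 and 0.63 on the cystic arrays. The summed fibroblast markers were 383 to 471 at day 15 and 258 to 273 at day 5, with COL1A1 at 1.38 between these days (limma adjusted p = 0.00203), although only 1 of its 3 other bright probe sets shared that sign. FBLN1, the only other fibroblast marker above log2 5, was at 0.21 (adjusted p = 0.486). The summed epithelial markers were 15172 to 15951 at day 15 and 17276 to 20267 at day 5, with the keratin genes KRT18 at -0.66 (adjusted p = 0.00106) and KRT8 at -0.48 (adjusted p = 0.0412). The other epithelial markers above log2 5 did not pass (adjusted p from 0.104 to 0.825). EPCAM was at -0.17, KRT19 at -0.04, VIL1 at -0.24 and CDH1 at 0.32. The part of all these measures in the changes of CYP3A5 and CYP24A1 was not tested.

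**Figure D3:**
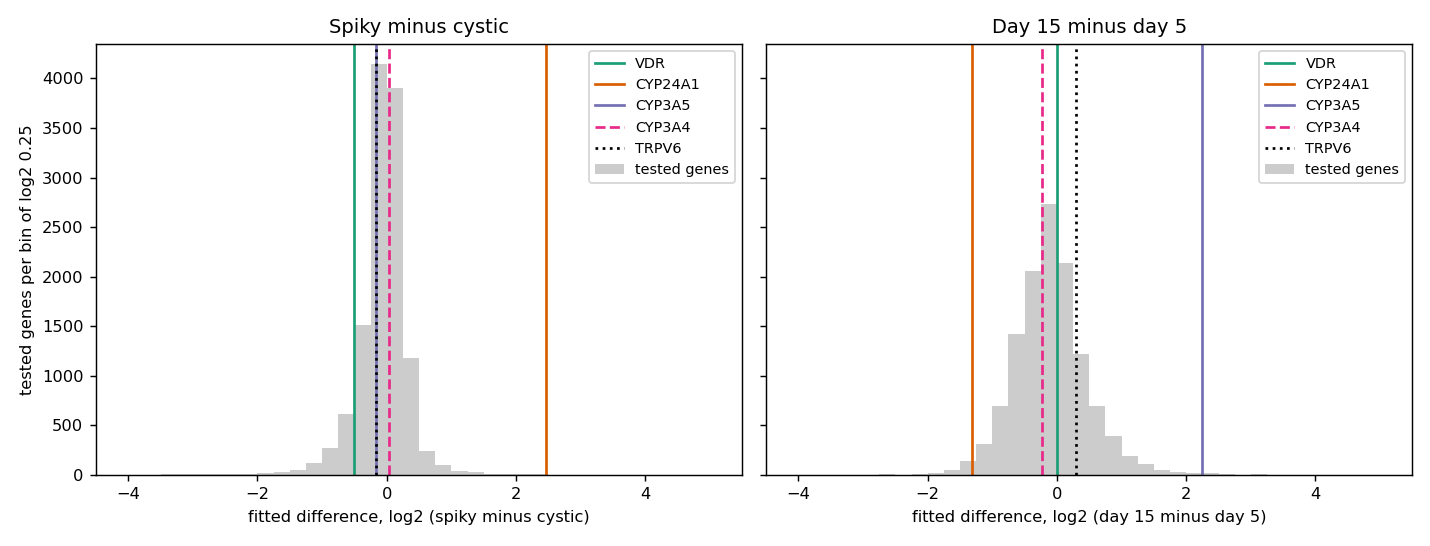
Fitted log2 differences of all 12317 tested genes in bins of 0.25 (grey bars), with the 5 genes as lines, for spiky minus cystic (left) and day 15 minus day 5 (right). The line for CYP24A1 on the left is drawn against cystic levels under log2 5 and its place is not interpreted. On the right CYP3A5 lies at 2.24, near the upper edge, while VDR, CYP3A4 and TRPV6 lie within the bulk of genes.

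Beside each gene its chromosomal neighbours were read, the 10 nearest tested genes on either side in the RefSeq order. For CYP24A1 on chromosome 20 the 20 neighbours had a median difference of -0.17 between spiky and cystic, with 1 passing as higher and 1 as lower. The genes directly beside it, BCAS1 and PFDN4, were at 0.59 and 0.48. For VDR on chromosome 12 the median was -0.05, with 1 higher and 3 lower, beside 3.65% higher and 7.74% lower over all tested genes, and the directly adjacent tested genes HDAC7 and TMEM106C were at 0.00 and -0.34. Around the CYP3A genes and TRPV6 on chromosome 7 the medians were 0.05 and 0.00, against -0.03 over all tested genes.

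The genes most alike to each member were those with the highest Pearson r over the 6 arrays among the tested genes that varied by at least log2 1, given as a description of these arrays. For CYP24A1 these were PALD1, RCL1, FAM171A1, KANK1 and MCC, with r from 0.966 to 0.994. The cystic levels of CYP24A1 behind these r values all lay under log2 5. PALD1, which encodes a phosphatase-like protein, had 8.76, 8.77 and 8.14 in the spiky line and 7.71, 7.54 and 7.61 in the cystic line at day 5, 10 and 15. For CYP3A5 they were GGT7, CYP4F12, ZDHHC11, ANKDD1A and EFEMP2, with r from 0.988 to 0.999. CYP4F12, another cytochrome P450 with fatty acid and drug substrates, had 5.62, 6.09 and 7.93 in the spiky line and 6.05, 6.61 and 7.76 in the cystic line. For VDR they were TERF2, BATF, NMRK1, SH3BGR and ZNF444 (r from 0.981 to 0.987). For TRPV6 they were RAPGEFL1, VAMP2, TNS4, ATP2B4 and MSRB2 (r from 0.984 to 0.996), of which ATP2B4 encodes a calcium pump of the plasma membrane. For CYP3A4 they were UFSP1, MYL11, SLC38A5, TBC1D22A and TBL3 (r from 0.890 to 0.945). The ranges of VDR, TRPV6 and CYP3A4 themselves were narrow, each under log2 1 over the arrays.

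Around the 5 genes, 79 further genes of vitamin D biology were listed in 5 groups by role, of which 42 were tested. The lists were chosen with earlier results of these arrays known. Counts and p-values of list genes are therefore a description of these arrays, and no excess over all genes is read from them. Between spiky and cystic 3 rose and 7 fell, with a median difference of -0.06 over the 42, against 11.4% called (3.65% higher and 7.74% lower) and a median of -0.03 over all tested genes. Between day 15 and day 5 12 rose and 6 fell, with a median of -0.00, against 32.3% called (10.4% higher and 21.9% lower) and a median of -0.11 over all tested genes. With each array centred on its median these counts were 5 higher and 7 lower between the lines, and 10 higher and 9 lower between the days. Without the day 5 array of the cystic or of the spiky line 4 of the 42 were called between the lines, and without either day 10 array 5. Leaving out either array of a day takes that day out of the comparison between the lines. Both omissions then give the same difference and are not separate checks.

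**Figure D4:**
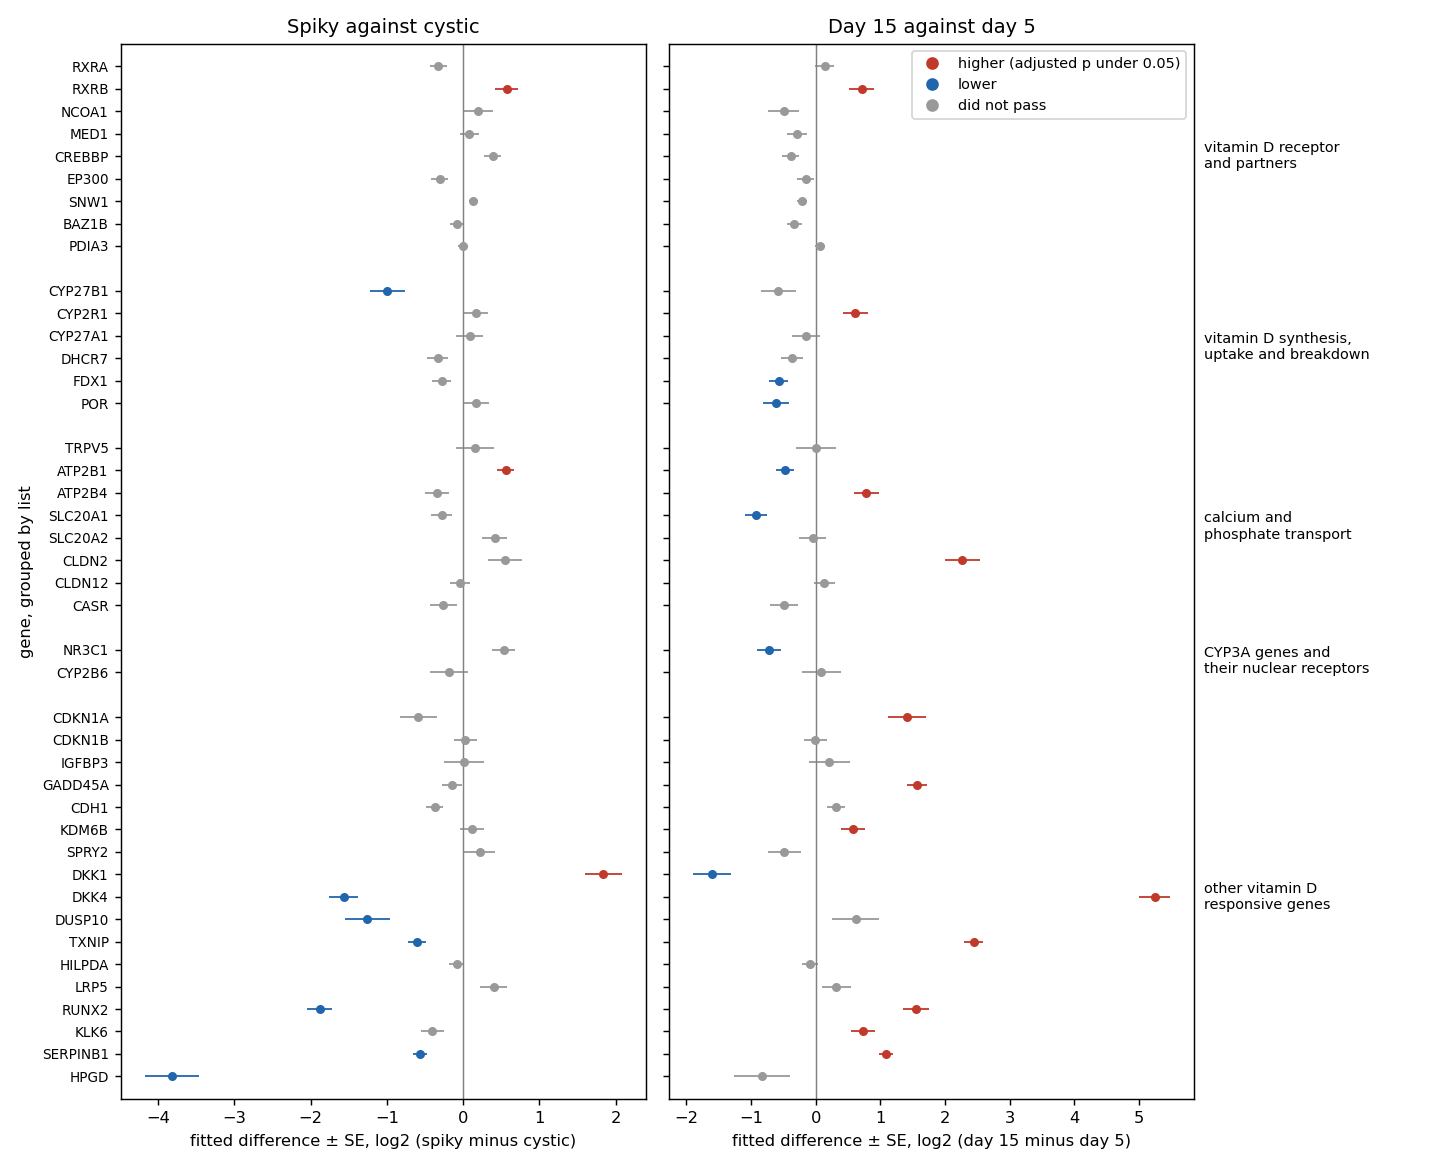
Fitted log2 difference with its standard error for the 42 tested vitamin D related genes other than the 5 members, grouped by role, for spiky minus cystic (left) and day 15 minus day 5 (right). Red points passed as higher, blue points as lower and grey points did not pass. The point of HPGD on the left is drawn from spiky levels under log2 5. DKK4 lies highest on the right at 5.24, with its spiky day 5 level under log2 5.

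Among 9 tested partners of the receptor 1 passed in each comparison, beside 11.4% of all tested genes between the lines and 32.3% between the days. RXRB, which encodes a retinoid X receptor that pairs with the vitamin D receptor, was higher in spiky colonies by 0.57 (SE 0.16, limma adjusted p = 0.0468) and rose by 0.71 between day 15 and day 5 (SE 0.19, adjusted p = 0.0203). Its level was 7.87 ± 0.42 in the spiky and 7.30 ± 0.37 in the cystic line (SD over days, n = 3), and leaving out either array of any day lost the call between the lines. The call between the days was lost without either day 5 array or the spiky day 15 array. RXRA, the more widely studied partner, was at -0.32 (adjusted p = 0.122), and the acetyltransferase coactivators CREBBP and EP300 were at 0.39 (adjusted p = 0.0590) and -0.30 (adjusted p = 0.125). The remaining 5 tested partners did not pass in either comparison.

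Of 6 tested genes of hormone synthesis and breakdown 1 passed between the lines, beside 11.4% of all tested genes. CYP27B1, which makes the active hormone, was 1.99-fold lower in spiky colonies, at 5.98 ± 0.25 in the spiky and 6.97 ± 0.52 in the cystic line (SD over days, n = 3; log2 difference -0.99, SE 0.22, limma adjusted p = 0.0226). It had 6.20, 5.70 and 6.02 in the spiky line and 7.35, 7.17 and 6.38 in the cystic line at day 5, 10 and 15, without overlap, and omitting any day 5 or day 10 array lost the call. Between day 15 and day 5 CYP2R1, which makes the circulating precursor of the hormone, rose by 0.62 (adjusted p = 0.0364). FDX1, the ferredoxin that passes electrons to mitochondrial cytochromes such as CYP24A1, fell by 0.57 (adjusted p = 0.0207), and POR, the reductase that serves microsomal cytochromes such as CYP3A5, fell by 0.62 (adjusted p = 0.0447). For FDX1 and for CYP2R1 1 of the 2 other bright probe sets had the opposite sign. All 3 of these day calls were lost without either day 5 array, and also when some of the later arrays were left out. The uptake receptors LRP2 and CUBN were close to background.

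Of 8 tested calcium and phosphate transport genes 1 rose and 0 fell between the lines, and 2 rose and 2 fell between the days. Over all tested genes 3.65% were higher and 7.74% lower between the lines, and 10.4% higher and 21.9% lower between the days. ATP2B1, a calcium pump of the plasma membrane, exceeded its cystic level 1.48-fold in the spiky line (0.56 on the log2 scale, SE 0.11, limma adjusted p = 0.0133) and did not overlap between the lines. CLDN2, a tight junction protein that lets cations pass, rose by 2.27 between day 15 and day 5 (SE 0.27, adjusted p = 0.000834), a 4.82-fold change. It had 5.25, 6.07 and 7.89 in the spiky line and 5.28, 5.11 and 7.18 in the cystic line at day 5, 10 and 15. ATP2B4 rose by 0.79 (adjusted p = 0.0142), and ATP2B1 fell by 0.48 (adjusted p = 0.0269). The phosphate transporter SLC20A1 fell by 0.92 (adjusted p = 0.00399), but its other bright probe set had the opposite sign. The call of ATP2B1 between the lines was lost without either array of day 5 or of day 10. Its call between the days was lost without any 1 of 5 arrays and with the mean of its probe sets (-0.24, adjusted p = 0.224), since 1 of its 2 other bright probe sets had the opposite sign. The call of ATP2B4 was lost without either day 5 array or the spiky day 15 array, and that of SLC20A1 without the spiky day 5 array. The calcium-binding protein gene S100G was close to background.

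The group of CYP3A genes and their nuclear receptors had 2 tested genes. NR3C1, the glucocorticoid receptor gene, was at 0.53 between spiky and cystic (limma adjusted p = 0.0523) and fell by 0.72 between day 15 and day 5 (adjusted p = 0.0166), with all 3 of its other bright probe sets in the same sense, although the call was lost without either day 5 array. CYP2B6 was at -0.19 and 0.09 in the 2 comparisons (adjusted p = 0.714 and 0.855). ABCC2, an export pump for conjugated drugs and bile pigments, was below the level required for testing and is named after its values were seen. It had 5.03, 5.00 and 6.25 in the spiky line and 3.60, 4.62 and 4.79 in the cystic line at day 5, 10 and 15, without overlap.

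Of 17 tested genes in the group of other responsive genes 1 rose and 6 fell between spiky and cystic, and 8 rose and 1 fell between day 15 and day 5. The shares over all tested genes were 3.65% higher and 7.74% lower between the lines, and 10.4% higher and 21.9% lower between the days. The group was not split by the direction in which each gene responds to the hormone, so its counts do not measure receptor activity. RUNX2, a bone and differentiation transcription factor, was 3.69-fold lower in spiky colonies (log2 difference -1.88, SE 0.17, limma adjusted p = 0.000386) and rose by 1.56 with time (adjusted p = 0.00117), and 4 of 4 other bright probe sets shared both signs. DUSP10, a phosphatase of stress-activated kinases, was at -1.26 (adjusted p = 0.0265), TXNIP, named as a vitamin D upregulated protein, at -0.61 (adjusted p = 0.0124), and the protease inhibitor SERPINB1 at -0.56 (adjusted p = 0.00441). The WNT inhibitor gene DKK4 was at -1.56 (adjusted p = 0.00153), while DKK1, for another WNT inhibitor, was at 1.84 (adjusted p = 0.00195). The gene of the prostaglandin-degrading enzyme HPGD had 3.30, 3.28 and 3.56 in the spiky line and 8.02, 7.46 and 6.11 in the cystic line at day 5, 10 and 15. It entered the tested genes only through the cystic arrays, so its count among the 6 that fell is a description, and it was at least 4.58-fold lower in spiky colonies. Between the lines the calls of DUSP10 and TXNIP were lost without either array of day 5 or of day 10, and that of SERPINB1 without either day 5 array. With the mean of its probe sets SERPINB1 was at -0.17 (adjusted p = 0.361), and 1 of its 3 other bright probe sets had the opposite sign. CDH1, which encodes E-cadherin and is a classic target of the hormone in colon cancer cells, was at -0.37 (adjusted p = 0.0653). Over time DKK4 rose by 5.24, TXNIP by 2.44, the growth arrest gene GADD45A by 1.56, the cell cycle inhibitor gene CDKN1A by 1.41, SERPINB1 by 1.09, the protease gene KLK6 by 0.74 and the histone demethylase gene KDM6B by 0.58 (adjusted p from 3.59e-05 to 0.0442). The spiky day 5 level of DKK4 was 4.45, under log2 5. With that level set to log2 5, DKK4 was at least 2.60-fold lower in spiky colonies and rose at least 31.2-fold over time. DKK1 fell by 1.60 (adjusted p = 0.00418). Without the spiky day 5 array the calls of CDKN1A and KLK6 over time were lost, and without the cystic day 5 array that of DKK1. Without the spiky day 15 array CDKN1A was at 0.70 and without the cystic day 15 array at 2.13, both past the threshold, and DKK1 without the cystic day 15 array was at -0.92. The call of KDM6B held in 3 of 12 alternatives and was lost without any 1 of 5 arrays and with centred arrays.

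Several well-known direct targets of the receptor were close to background in both lines. They included the antimicrobial peptide gene CAMP, the monocyte receptor gene CD14, the thrombomodulin gene THBD, the cystatin gene CST5 and SPP1. CAMP had 4.15, 4.60 and 4.35 in the spiky line and 4.13, 4.21 and 4.71 in the cystic line at day 5, 10 and 15.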

How the data were processed

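Transcripts of the spiky and the cystic HCA-7 line were measured on 6 arrays, 1 for each line and culture day. The authors deposited log2 values made with RMA, per the submitters' processing notes. For the RMA version, nothing is given in the sources used here. Biotin-labelled cRNA was prepared, per the labels' protocols. Arrays carry no read depth.

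Gene names came from GEO's annotation of the platform and were brought to current RefSeq symbols (GRCh38.p14) by way of gene IDs. Of 54675 probe sets 41097 had 1 symbol, 1801 several and 11777 none, and 41043 matched. The brightest probe set by mean level stood for each of 19775 genes. Genes were tested where that mean reached log2 5, which left 12317. The main linear model (limma 3.58.1 under R 4.3.3) used all 6 arrays, with colony shape and culture day as factors and an intensity trend in the variance prior, which left 2 residual degrees of freedom. A second model held day as a number and its product with shape. Two-sided p-values were adjusted after Benjamini and Hochberg over all tested genes, with a threshold of 0.05. Culture day, part of the design, served as the block. Deviations from the line means correlated at 0.608, 0.496 and 0.719 (across genes) between arrays of the same day. Folds against levels under log2 5 set those levels to 5 and are lower bounds. The fit was tested on simulated data. Promoters were aligned with Biopython 1.88 and figures drawn with matplotlib 3.10.9.

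The 5 genes, the lists and the rules for naming genes were chosen with earlier results of these arrays known. Named were all members, every list gene that passed a comparison and those with the largest differences in each list, and the 5 genes most alike to each member. The alternatives were other filters on low levels, the mean over probe sets, centred arrays, a prior without trend, a model without day, omission of single arrays, and tests of every probe set.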

Additional observations from a re-analysis of the deposited data

How the results depend on the processing

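The number of genes called between spiky and cystic was 1403. It was 691 without the intensity trend, 2462 of 23948 with each probe set tested (an alternative chosen after seeing the data, as were all for the lists except centring and the block), and 507 to 2157 with 1 array left out. Without culture day as a replicate block 72 genes were called. Between day 15 and day 5 3982 genes were called, 7122 with each probe set tested, and 761 (without the spiky day 5 array) to 4318 with 1 array left out. The slope difference called 0 genes, and 0 to 33 with 1 array left out. Of the 42 list genes 10 were called between the lines, 5 without the intensity trend, 1 without the replicate block (HPGD) and 4 to 14 with 1 array left out; between the days 18 were called, and 7 to 21 with 1 array left out. Between the lines 9 of the 10 calls were lost without the block; the other, HPGD, was tested only through its cystic arrays, its spiky levels being under log2 5. Between the days the calls that held under all alternatives run were CLDN2, DKK4, GADD45A, RUNX2, SERPINB1 and TXNIP (6 of 18). With the mean of all probe sets SLC20A1 was at 0.44 between day 15 and day 5 (limma adjusted p = 0.152). CYP24A1 kept its call between the days in 6 of 11 alternatives; it was lost without a filter (adjusted p = 0.0594), without the intensity trend (adjusted p = 0.0748) and without 3 of the 6 arrays. For VDR, read from its brightest probe set or the mean of its probe sets, the difference between the lines lay at -0.65 to -0.42 over all alternatives. Its other probe sets taken singly had mean differences of -0.50, -0.68 and -0.18. By Spearman rho 3 of the 5 genes most alike to CYP24A1 stayed at or above 0.9. CYP24A1 and CYP3A4 gave no value under a mean log2 of at least 6. CYP24A1 levels in the cystic line are near background, which limits its fold.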
